A study of Mus musculus with 41 samples.

Results

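The expression of 54 mouse target genes was compared between mice that carried a nanomesh seeded with endometrial mesenchymal stem cells for 1 week (P+eMSC) and sham operated mice of the same week (Sham). The comparison was defined by the deposited group labels, and it holds 14 of the 41 mice of the series, 7 in each group. All were female NSG mice, an immunodeficient strain that lacks mature T, B and natural killer cells, so the leukocytes of the host are mostly neutrophils, monocytes and macrophages. The P nanomesh is an electrospun degradable polyester sheet placed under the abdominal skin, in a pocket on each side of the midline. For P+eMSC, human SUSD2+ endometrial cells carrying an mCherry lentivirus were pipetted onto the mesh. The cells came from 7 women, with 1 cell line per biopsy, and the sample titles do not name the donor for a mouse. The labels give the tissue as skin, and the RNA came from tissue lying near the implant, since cells that had grown into the mesh could not be recovered. The steps of the sham operation and the ages of the mice are not given in the sources used here, and some animals of the study had been reused from an earlier one. Each mouse belonged to 1 group, so the mice were not paired.

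An implant in the skin first meets the blood-borne cells of the acute response, drawn in by chemokines such as *Ccl2* and *Cxcl2* and by cytokines such as *Il1b*. Macrophages then clear the wound or persist around the material, while fibroblasts lay down collagen under the influence of TGF-beta and new vessels grow in under growth factors such as *Vegfa*. Matrix metalloproteinases cut the matrix, and their tissue inhibitors hold them in check. A sham operation is a control without the material, so the comparison asks how far tissue near the seeded mesh stood from a healing wound at 1 week.

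Each value is a Ct difference, the Ct of 18S ribosomal RNA minus the Ct of the gene in the same mouse, with the mean of the 7 sham mice set to 0. A value of 1 therefore stands for 1 PCR cycle, or a doubling, over the sham mean, and values of different genes are not comparable as levels because each gene has its own assay. In bulk tissue, fewer cells of a type and less RNA per cell cannot be told apart. The panel holds the skin markers *Cdh1* (epithelium), *Col1a1* and *Col3a1* (fibroblasts), and each gave a Ct in all 14 mice. Of 756 values, 6 were undetected, all in P+eMSC mouse 78 (*Ccl4*, *Cxcl2*, *Ccr7*, *Il1b*, *Il10* and *Nos2*), and these genes were tested on 6 P+eMSC mice against 7 sham mice. The Ct of 18S was 6.77 ± 0.11 in P+eMSC (SD, n = 7) and 6.82 ± 0.31 in sham (SD, n = 7), with a shift of 0.017 cycles (exact Mann-Whitney U test, two-sided p = 0.902).

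No gene separated the groups. With a two-sided exact Mann-Whitney U test per gene and Benjamini-Hochberg adjustment, 0 of 54 genes were higher and 0 were lower in P+eMSC at an adjusted p below 0.05 (0% of the panel in either direction). At an unadjusted p below 0.05 there were also 0 genes, as there were with limma on the 14 mice or on all 41 mice and with an exact permutation test of the means. Permutation within the animal number series (4 P+eMSC and 5 sham mice numbered below 1000, 3 and 2 numbered above 2000) gave 1 gene at that level, *Pdgfa* (exact p = 0.0317, adjusted p = 1). The smallest exact p was 0.259, shared by 6 genes (*Fgfr3*, *Timp4*, *Ccl12*, *Ccl7*, *Vegfa* and *Pdgfa*), and every adjusted p was 1. Groups of this size could have reached an exact p of 0.000583. The values of the groups overlapped in every gene (0 of 54 without overlap, 0%).

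The sizes of the differences are given as the Hodges-Lehmann shift, the median of all differences between a P+eMSC mouse and a sham mouse, with its exact confidence interval (96.2%, or 96.5% for the genes with 6 values). It lay above 0 for 24 genes and below 0 for 30. Its median was -0.049, and it ranged from -1.82 in *Mmp9* to 1.86 in *Cxcl2*. All 54 intervals covered 0. The SD of each group exceeded the size of the shift in 53 genes. The intervals were 4.86 log2 units wide in the median, and only 5 genes had both bounds within 2 log2 units, so in the other genes the data leave room for a 4-fold difference and a missing call does not show equal expression.

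**Figure D1:**
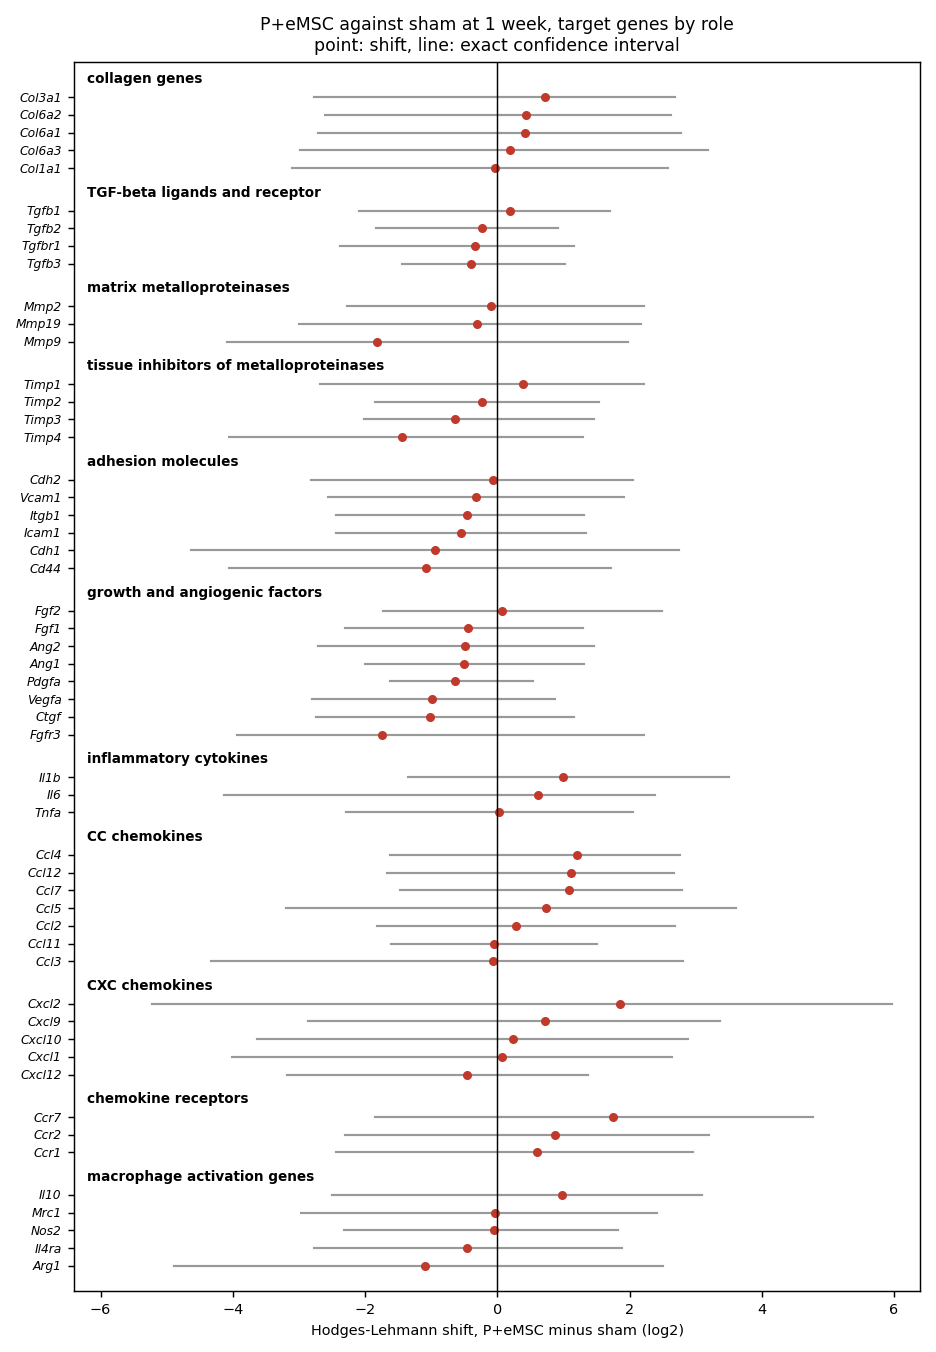
Hodges-Lehmann shift of the target genes between P+eMSC and sham mice at 1 week (points, log2, horizontal axis) with its exact confidence interval (lines), grouped by role. Every line crosses 0, and the shifts run from -1.82 in *Mmp9* to 1.86 in *Cxcl2*.

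The mice of each group differed across the whole panel, over a range wider than the shift between the groups. Among the P+eMSC mice, the mean over the 48 genes detected in all 14 mice was lowest in mouse 78, at -3.42, and highest in mouse 2358, at 1.90, and mouse 10, at 1.47. The other 4 P+eMSC mice lay between these and below the sham mean, at -0.13 (mouse 2309), -0.39 (mouse 61), -0.48 (mouse 2350) and -0.92 (mouse 532). Among the sham mice the panel mean was 2.59 in mouse 2269, 0.82 in mouse 126, 0.58 in mouse 400, -0.13 in mouse 119, -0.39 in mouse 125, -1.63 in mouse 120 and -1.84 in mouse 2354. Both groups thus held mice with nearly the whole panel high and mice with nearly the whole panel low. The panel mean was -0.28 ± 1.74 in P+eMSC (SD, n = 7) and 0 ± 1.52 in sham (SD, n = 7), a shift of -0.26 with an interval from -2.72 to 1.60 (exact Mann-Whitney U test, two-sided p = 0.710).

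Counted gene by gene, mouse 78 lay below the sham mean in all 48 genes detected in it and below the lowest sham mouse in 43. P+eMSC mouse 532 lay below the sham mean in 47 genes and below the lowest sham mouse in 7. P+eMSC mouse 2358 lay above the sham mean in 53 genes and above the highest sham mouse in 12, and P+eMSC mouse 10 in 43 and 6. Sham mouse 2269 exceeded the other 6 sham mice in 42 genes, whereas sham mouse 120 lay below the sham mean in all 54. The 18S Ct of mouse 78 was 6.94, the latest of the P+eMSC mice and inside the sham range of 6.53 to 7.44. Without sham mouse 400 that range ended at 6.97. Sham mouse 2269 is itself part of the range, at 6.56. Sham mouse 400 had the latest 18S Ct, 7.44. At a given gene Ct, a later 18S Ct gives a higher value by construction, and its part in the values of mouse 400 was not tested. Differences common to all 48 genes of a mouse made up 72.9% of the spread in P+eMSC and 59.0% in sham. In mouse 78 the cell type markers of the panel were low together, *Cdh1* at -3.26, *Col1a1* at -4.82, *Col3a1* at -3.89, the monocyte receptor *Ccr2* at -3.11 and the macrophage receptor *Mrc1* at -4.00, while *Ccr7* of mature dendritic cells gave no Ct. In sham mouse 2269 *Cdh1* was at -2.09, whereas *Col1a1* was at 3.02, *Col3a1* at 3.65, *Ccr2* at 4.67, *Mrc1* at 3.37 and *Ccr7* at 5.51, so the epithelial marker was low and the others were high. The part of these markers in the panel-wide differences was not tested.

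**Figure D2:**
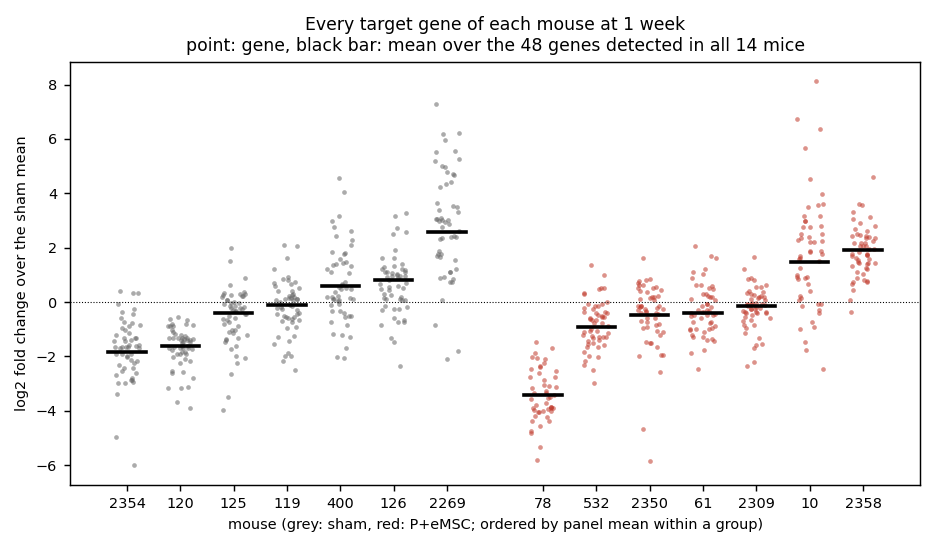
Log2 fold change over the sham mean (vertical axis) of every detected target gene in each of the 14 mice (horizontal axis; grey for sham, red for P+eMSC), with a bar at the mean over the 48 genes detected in all mice. P+eMSC mouse 78 lies at -3.42 and sham mouse 2269 at 2.59, at opposite ends of the panel means.

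A single mouse at the end of the panel could move the balance of the shifts. Without P+eMSC mouse 78 there were 37 shifts above 0 and 17 below (median 0.42), and without sham mouse 2269 there were 36 above 0 and 18 below (median 0.36). When each gene was set against the panel median of its mouse and not against 18S, the median SD per gene went from 1.85 to 0.80 in P+eMSC and from 1.76 to 0.99 in sham. Under that reference 31 shifts were above 0 and 23 below, with a median of 0.092, and 0 genes were called (smallest exact p = 0.0973, adjusted p = 0.875). The sign of the shift differed between the references in *Ang1*, *Fgf1*, *Mmp2*, *Timp2*, *Tgfb2*, *Ccl11*, *Cxcl1*, *Cxcl10*, *Il10*, *Arg1*, *Mrc1*, *Vcam1* and *Col1a1*. The lists below are therefore given with the count under both references, and changes under the panel median are relative to the panel as a whole.

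Among the chemokines, the CC family attracts monocytes and other leukocytes. Of 7 CC chemokine genes, 5 had a shift above 0 and the median was 0.73, against -0.049 over all genes, and with the panel median as reference 6 were above 0 and the median was 0.73. None was called in either direction. *Ccl12* and *Ccl7*, monocyte-attracting ligands of *Ccr2*, were among the genes with the smallest p. *Ccl12* ran from -2.07 to 2.36 in the P+eMSC mice with a median of 0.57, and from -2.24 to 4.71 in the sham mice with a median of -0.42. Of the 7 P+eMSC mice, 5 were above every sham mouse except mouse 2269, which was higher than all of them. The shift was 1.12, a fold of 2.17 (interval -1.67 to 2.67, exact p = 0.259). It ran from 0.85 without sham mouse 125 (exact p = 0.445) to 1.45 without mouse 2269 (exact p = 0.0734). *Ccl7* lay between -1.71 and 2.80 in P+eMSC (median 0.62) and between -1.71 and 5.27 in sham (median -0.62). Mouse 2269 again stood above every other mouse, the next sham mouse was at 0.19, and 4 P+eMSC mice lay between them. The shift of *Ccl7* was 1.09 (interval -1.47 to 2.79, exact p = 0.259). It ran from 0.90 without sham mouse 125 (exact p = 0.445) to 1.47 without mouse 2269 (exact p = 0.0734).

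*Ccl2*, the main monocyte chemoattractant and another *Ccr2* ligand, had a smaller shift of 0.29 (interval -1.82 to 2.68, exact p = 0.805). Of the ligands made by activated macrophages, *Ccl4* ran from -2.0 to 6.72 in the 6 P+eMSC mice with a Ct (median 0.78) and from -1.66 to 5.56 in sham (median -0.88). A mouse of each group held the upper end, P+eMSC mouse 10 at 6.72 and sham mouse 2269 at 5.56, and the other mice of both groups stayed at or below 1.11. The shift of *Ccl4* was 1.21 (interval -1.62 to 2.76, exact p = 0.534). *Ccl3* showed the same pair of high mice, at 6.36 and 6.20, and ran from -5.80 to 6.36 in P+eMSC (median 0.44) and from -2.18 to 6.20 in sham (median -1.47). Its shift was near 0, at -0.062 (interval -4.33 to 2.81, exact p = 1). *Ccl5*, which also attracts monocytes, had a shift of 0.73 (interval -3.20 to 3.61, exact p = 0.805), and *Ccl11*, the eosinophil attractant eotaxin, of -0.048 (interval -1.61 to 1.51, exact p = 0.805).

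The CXC chemokines include *Cxcl2*, the gene with the widest spread among the sham mice. Of 5 genes, 4 had a shift above 0 with a median of 0.24, but with the panel median as reference 2 were above 0 and the median was -0.038. *Cxcl2*, a neutrophil attractant, had the largest positive shift of the 54 genes. Its values ran from -1.71 to 8.13 in the 6 P+eMSC mice with a Ct (median 0.58) and from -3.96 to 7.29 in sham (median -1.99). P+eMSC mouse 10 at 8.13 and sham mouse 2269 at 7.29 were highest, 4 sham mice lay below all 6 of these P+eMSC mice, and mouse 78 gave no Ct. The shift was 1.86, a fold of 3.63, with the widest interval of the panel (-5.22 to 5.97, exact p = 0.295). With mouse 78 ranked lowest the shift was 1.21. *Cxcl1*, the related neutrophil attractant, had a shift of 0.068 (exact p = 1), and the interferon-induced *Cxcl9* and *Cxcl10* lay at 0.73 (exact p = 0.805) and 0.24 (exact p = 0.902). *Cxcl12*, made by stromal cells and known for holding progenitor cells in place, ran from -3.35 to 2.05 in P+eMSC (median -0.35) and from -1.68 to 3.05 in sham (median -0.036). The groups lay over each other, with a shift of -0.45 (interval -3.18 to 1.38, exact p = 0.620).

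All 3 chemokine receptor genes had a shift above 0 under both references, with a median of 0.87 and of 0.86, and none was called. *Ccr7*, which guides mature dendritic cells to lymph nodes, ran from -1.21 to 4.51 in the 6 P+eMSC mice with a Ct (median 1.35) and from -3.15 to 5.51 in sham (median -0.27). Of the P+eMSC mice, 4 lay above 5 of the 7 sham mice, and sham mouse 2269 at 5.51 lay above all. Its shift of 1.74 was the second highest of the panel (interval -1.84 to 4.78, exact p = 0.295). With mouse 78 ranked lowest the shift was 1.03. It was 2.18 without mouse 2269 (exact p = 0.0931) and 1.16 without sham mouse 120 (exact p = 0.485). *Ccr2*, the receptor that monocytes need to leave the bone marrow, lay between -3.11 and 2.80 in P+eMSC (median 0.89) and between -2.32 and 4.67 in sham (median -0.80). A set of 4 P+eMSC mice exceeded 6 of the 7 sham mice, and mouse 2269 exceeded every mouse of both groups. The shift was 0.87 (interval -2.30 to 3.21, exact p = 0.383), and 1.63 without mouse 2269 or without mouse 78 (exact p = 0.138 for each). Without sham mouse 2354 it was 0.64 (exact p = 0.534). *Ccr1*, the receptor for *Ccl3* and *Ccl5* on monocytes and neutrophils, had a shift of 0.59 (interval -2.44 to 2.96, exact p = 0.535).

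Of the inflammatory cytokines, all 3 had a shift above 0 under both references, with a median of 0.62 and of 0.74, and none was called. *Il1b*, a product of activated macrophages and neutrophils, ran from -1.50 to 5.68 in the 6 P+eMSC mice with a Ct (median 0.13) and from -2.06 to 6.21 in sham (median -0.73). The range of these 6 P+eMSC mice lay inside that of the sham mice, and mouse 78 gave no Ct. The shift was 0.99 (interval -1.36 to 3.50, exact p = 0.366), and 0.50 with mouse 78 ranked lowest. *Il6* spread unequally, with an SD of 0.98 in P+eMSC, the lowest of the 54 genes in that group, and of 3.37 in sham (n = 7 each). Sham mice 2269 and 400 were at 5.97 and 3.16, above every P+eMSC mouse, while sham mice 119, 120 and 2354 lay below every P+eMSC mouse. Its shift was 0.62 although the mean of the P+eMSC mice was -0.33, and the exact p was 0.620. *Tnfa*, the gene of tumour necrosis factor, had a shift of 0.030 (interval -2.29 to 2.06, exact p = 0.902).

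**Figure D3:**
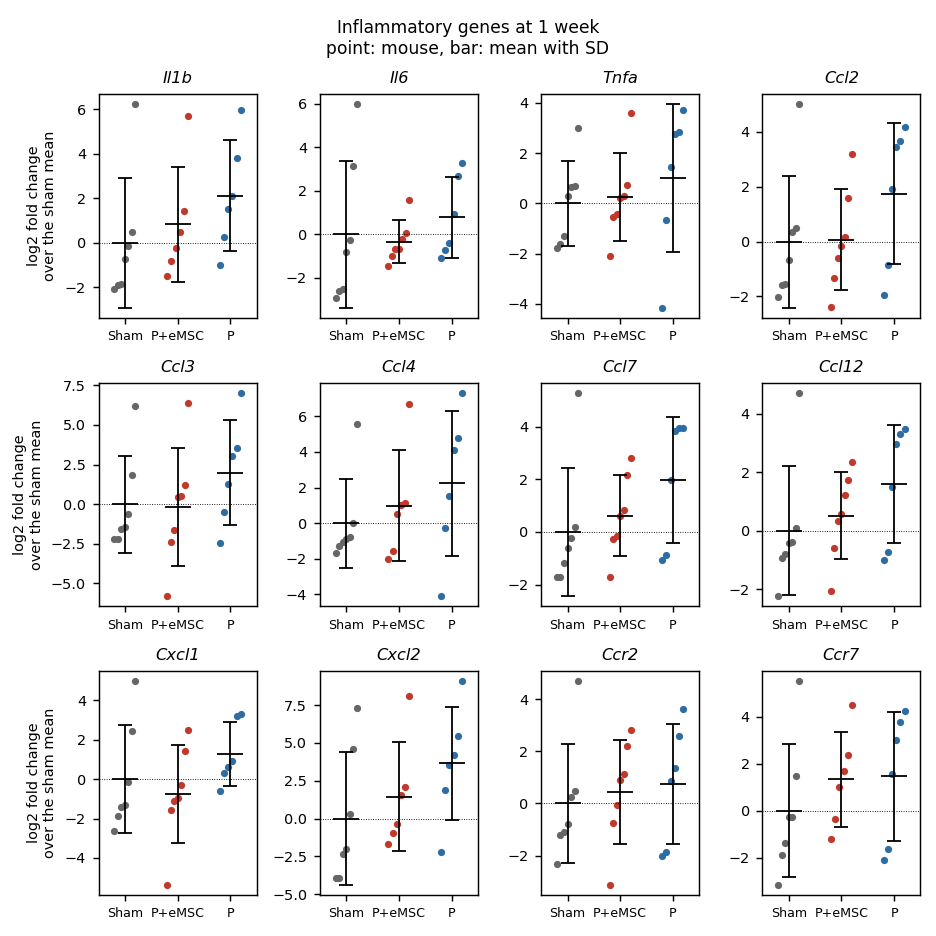
Log2 fold change over the sham mean (vertical axis) of 12 cytokine, chemokine and receptor genes at 1 week in 7 sham (grey), 7 P+eMSC (red) and 6 P mice (blue; nanomesh without cells), 1 point per mouse with a Ct, with the mean and SD as bars. Among the sham and P+eMSC mice, mouse 2269 and mouse 10 hold the upper end in most panels, as in *Cxcl2* at 7.29 and 8.13.

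The genes tied to macrophage activation lay on both sides of 0. Of 5 genes, 1 had a shift above 0, with a median of -0.051, and with the panel median as reference 2 were above 0 and the median was -0.25. Without mouse 78, 4 of the 5 lay above 0 with a median of 0.43, and without sham mouse 2269, 4 did with a median of 0.22. *Il10*, an anti-inflammatory cytokine, ran from -1.56 to 1.84 in the 6 P+eMSC mice with a Ct (median 0.12) and from -3.49 to 4.34 in sham (median -0.97). All 6 P+eMSC values lay inside the sham range. The shift was 0.98 (interval -2.50 to 3.10, exact p = 0.836), but it was -0.53 with the panel median as reference and -0.13 with mouse 78 ranked lowest. *Arg1*, the arginase of alternatively activated macrophages, ran from -5.83 to 3.61 in P+eMSC (median -0.68) and from -3.15 to 2.87 in sham (median 0.91). The P+eMSC mice spread past the sham mice at both ends, with mice 2350 and 78 below and mice 2358 and 10 above them all. Its shift was -1.09 (interval -4.88 to 2.50, exact p = 0.805), and 0.074 with the panel median as reference. *Mrc1*, the mannose receptor of tissue macrophages, *Nos2*, the inducible nitric oxide synthase, and *Il4ra*, the receptor chain for interleukins 4 and 13, lay at shifts of -0.039, -0.051 and -0.45 (exact p = 1, 0.945 and 0.710).

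The growth and angiogenic factors leaned the other way. Of 8 genes, 7 had a shift below 0 with a median of -0.58, and with the panel median as reference 5 were below 0 with a median of -0.30. None was called. *Vegfa*, the main growth factor of new vessels, ran from -3.10 to 1.73 in P+eMSC (median -1.46) and from -1.63 to 2.97 in sham (median -0.29). At the low end, 4 P+eMSC mice lay below 6 of the 7 sham mice, and sham mouse 400 stood alone at 2.97. The 18S Ct of mouse 400 was the latest, and its part in this value was not tested. With the panel median as reference the highest sham value was 2.85. The shift was -0.99, an inverse fold of 1.98 (interval -2.81 to 0.87, exact p = 0.259). It was -0.32 with the panel median as reference (exact p = 0.535) and -0.17 without mice 78 and 400 (exact p = 0.699). *Pdgfa*, a mitogen for fibroblasts, had a narrow spread, from -1.86 to 0.79 in P+eMSC (median -0.74) and from -0.92 to 0.89 in sham (median -0.083). Mice 78, 532 and 61 of P+eMSC lay below every sham mouse, and mice 2358 and 2350 lay near the top of the sham range. Its shift was -0.64 (interval -1.63 to 0.53, exact p = 0.259), against -0.28 with the panel median as reference (exact p = 0.805) and -0.42 without mouse 78 (exact p = 0.445).

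*Fgfr3*, a receptor for fibroblast growth factors, ran from -2.76 to 1.75 in P+eMSC (median -1.23) and from -4.98 to 2.71 in sham (median 1.23). Sham mice 119, 125, 400 and 126, at 1.23 to 2.71, lay above 6 of the P+eMSC mice, and sham mouse 2354 lay below every other mouse. The shift was -1.74, an inverse fold of 3.34 (interval -3.94 to 2.22, exact p = 0.259). The epithelial marker *Cdh1* was also lowest in sham mouse 2354, at -6.01. Among the P+eMSC mice *Cdh1* was lowest in mouse 2350, at -4.67, where *Fgfr3* was -2.58, but the lowest *Fgfr3* was in mouse 78, at -2.76. The part of epithelial content in the *Fgfr3* values was not tested. *Ctgf*, a matricellular protein induced by TGF-beta, ran from -4.02 to 1.05 in P+eMSC (median -0.81) and from -2.55 to 1.92 in sham (median 0.61). All P+eMSC mice but 2358 lay below 4 of the sham mice, at a shift of -1.02 (interval -2.75 to 1.16, exact p = 0.318). Without mouse 78 or without sham mouse 126 it was -0.50 (exact p = 0.534 for each). *Fgf2*, the basic fibroblast growth factor, was the exception in sign, with a range from -2.48 to 3.33 in P+eMSC (median -0.15) and from -2.01 to 1.62 in sham (median 0.26). Its shift of 0.075 was close to 0 (interval -1.72 to 2.50, exact p = 0.902). The vessel-stabilising *Ang1*, its antagonist *Ang2* and *Fgf1* lay at shifts of -0.51 (exact p = 0.620), -0.49 (exact p = 0.535) and -0.44 (exact p = 0.710).

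Collagen genes, the products of fibroblasts, had shifts above 0 in 4 of 5, with a median of 0.41, and in 5 of 5 with the panel median as reference, with a median of 0.56. None was called. *Col3a1*, a fibrillar collagen of early granulation tissue, ran from -3.89 to 2.42 in P+eMSC (median 0.64) and from -2.54 to 3.65 in sham (median -0.32). P+eMSC mouse 78 lay lowest and sham mouse 2269 highest, and the other mice of the groups overlapped. The shift was 0.72 (interval -2.77 to 2.69, exact p = 0.710). *Col1a1*, the main fibrillar collagen of skin, ran from -4.82 to 2.77 in P+eMSC (median -0.086) and from -2.85 to 3.02 in sham (median 0.15), with a shift of -0.036 that was 0.056 with the panel median as reference (interval -3.11 to 2.59, exact p = 1). The microfibril-forming collagen VI chains *Col6a1*, *Col6a2* and *Col6a3* differed by shifts of 0.41, 0.44 and 0.19 (exact p = 0.805, 0.620 and 0.620).

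The TGF-beta genes, which drive collagen synthesis, had no shift beyond 0.39 in size. Of 4 shifts, 3 were below 0 with a median of -0.28, but with the panel median as reference 2 were below and the median was 0.026. Leaving out mouse 78 put 3 above 0 with a median of 0.17, and leaving out mouse 2269 put 2 above 0 with a median of 0.13. *Tgfb3* had the narrowest sham spread of the panel, from -0.86 to 0.85 (median 0.30, SD 0.62, n = 7), and ran from -2.26 to 1.68 in P+eMSC (median -0.092). P+eMSC mice 78, 532 and 61 lay below every sham mouse and mouse 2358 lay above them, so the P+eMSC mice spread to both sides. Its shift was -0.39 (interval -1.44 to 1.02, exact p = 0.535), and it was among the 5 genes with both bounds within 2 log2 units. *Tgfb1*, the form released by platelets and macrophages, ran from -3.04 to 2.07 in P+eMSC (median -0.083) and from -1.44 to 2.35 in sham (median 0.063). The groups overlapped throughout, with a shift of 0.19 (interval -2.09 to 1.70, exact p = 1). The shift of *Tgfb2* was -0.23 (exact p = 1) and that of the receptor gene *Tgfbr1* was -0.34 (exact p = 0.805).

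All 3 matrix metalloproteinases had shifts below 0, with a median of -0.31, and 2 of 3 did with the panel median as reference, with a median of -0.17. Without P+eMSC mouse 78 or without sham mouse 2269, 2 of 3 lay above 0 and the median was 0.22. *Mmp9*, a gelatinase carried by neutrophils and macrophages, had the lowest shift of the panel. It ran from -3.91 to 3.56 in P+eMSC (median -1.94) and from -3.39 to 2.38 in sham (median 0.40). The P+eMSC mice other than 2358 and 10, at -1.42 or lower, lay below 5 of the 7 sham mice, while mouse 10 at 3.56 was the highest of all 14. The shift was -1.82, an inverse fold of 3.52 (interval -4.08 to 1.97, exact p = 0.456), and with the panel median as reference it was -1.07 (exact p = 0.0973). Without mouse 78 it was -1.15 (exact p = 0.731). *Mmp2*, the gelatinase of fibroblasts, and *Mmp19* lay at shifts of -0.094 (exact p = 1) and -0.31 (exact p = 0.902).

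Of the 4 tissue inhibitors of metalloproteinases, 3 had a shift below 0 and the median was -0.43, whereas with the panel median as reference 2 were below 0 and the median was -0.039. Without mouse 78 it was 0.088, with 2 of 4 below 0, and without mouse 2269 it was -0.24, also with 2 below. None was called. *Timp4*, the tissue inhibitor with the most restricted expression of its family, ran from -4.37 to 2.68 in P+eMSC (median -2.01) and from -1.82 to 2.58 in sham (median -0.25). P+eMSC mice 78, 61, 10 and 532 lay below every sham mouse, and mouse 2358 lay above them all. Its shift was -1.43, an inverse fold of 2.70 (interval -4.06 to 1.30, exact p = 0.259). The shift was -0.71 without mouse 78 (exact p = 0.445) and -0.79 without sham mouse 126 or 119 (exact p = 0.366 for each). *Timp1*, the inducible inhibitor that accompanies inflammation, ran from -3.54 to 2.97 in P+eMSC (median -0.14) and from -1.97 to 5.19 in sham (median -0.85). Sham mouse 2269 stood alone at the top, and the shift was 0.39 although the mean of the P+eMSC mice was -0.22 (interval -2.69 to 2.23, exact p = 0.710). *Timp2* and *Timp3* lay at shifts of -0.23 (exact p = 0.805) and -0.64 (exact p = 0.620).

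Adhesion genes had shifts below 0 in 6 of 6, with a median of -0.50, and in 5 of 6 with the panel median as reference, with a median of -0.25. Without mouse 78 or without mouse 2269, 4 of 6 lay below 0, with medians of -0.081 and -0.15, and without mice 78 and 400 only 2 did, with a median of 0.089. None was called. *Cd44*, the hyaluronan receptor of leukocytes and stromal cells, ran from -4.04 to 2.51 in P+eMSC (median -1.24) and from -2.97 to 3.32 in sham (median 0.16). All P+eMSC mice but 2358 and 10 lay below 5 of the sham mice, and sham mice 120 and 2354 lay among them. The shift was -1.08 (interval -4.06 to 1.72, exact p = 0.535). *Cdh1*, the epithelial cadherin, spread over more than 7 log2 units in each group, from -4.67 to 2.99 in P+eMSC (median 0.18) and from -6.01 to 3.26 in sham (median 1.38), with a shift of -0.94 (exact p = 0.710). *Icam1* and *Vcam1*, which hold leukocytes on the vessel wall, lay at shifts of -0.55 (exact p = 0.620) and -0.33 (exact p = 1), *Itgb1*, the beta 1 integrin, of -0.46 (exact p = 0.710) and *Cdh2*, the neural cadherin, of -0.061 (exact p = 1).

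**Figure D4:**
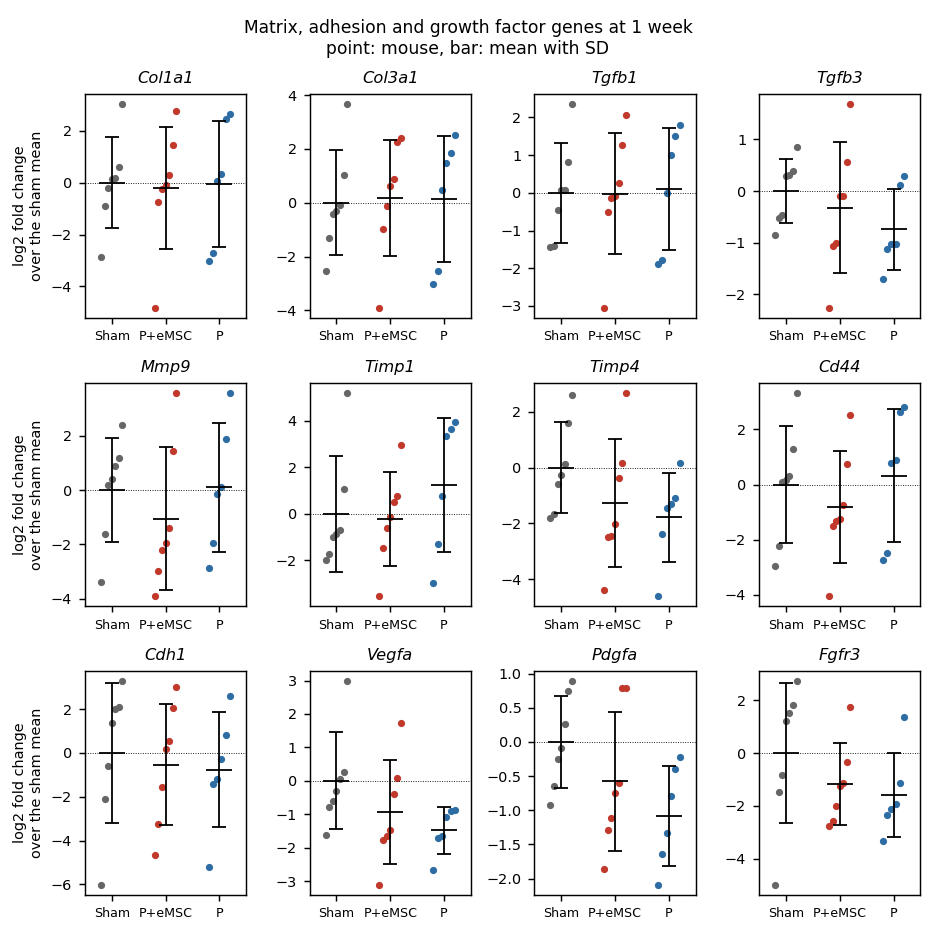
Log2 fold change over the sham mean (vertical axis) of 12 matrix, adhesion and growth factor genes at 1 week in 7 sham (grey), 7 P+eMSC (red) and 6 P mice (blue), 1 point per mouse, with the mean and SD as bars. The points of P+eMSC and sham overlap in every panel, and the lowest P+eMSC point is mouse 78 in most of them, as in *Col1a1* at -4.82.

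The mice with the nanomesh alone (P, 6 mice at 1 week) were measured against the same sham mice, so their values are set beside those of P+eMSC with no test between the comparisons. In *Cxcl2* the shift from sham was 4.36 in P and 1.86 in P+eMSC, and the P mice ran from -2.18 to 9.06 with a median of 3.85. For the *Ccr2* ligands the shifts in P and P+eMSC were 2.87 and 1.09 in *Ccl7*, 2.78 and 0.29 in *Ccl2*, and 2.11 and 1.12 in *Ccl12*. In each of them 4 of the 6 P mice lay above the sham mean, and mice 133 and 2355 lay below it. Of the 7 P+eMSC mice, 4 lay above it in *Ccl7*, 3 in *Ccl2* and 5 in *Ccl12*. The P mice of *Ccl7* lay between -1.05 and 3.95, a range that the sham mice spanned with mouse 2269 included. *Il1b* had a shift of 2.26 in P and 0.99 in P+eMSC, and *Timp1* of 1.69 and 0.39. Not all inflammatory genes had this order or distance. The shifts in P and P+eMSC were 1.83 and 1.74 in *Ccr7*, 1.01 and 0.87 in *Ccr2*, and -0.97 and 0.73 in *Cxcl9*. *Vegfa* had shifts of -1.13 in P and -0.99 in P+eMSC, and all 6 P mice, between -2.68 and -0.87, lay below the sham mean. The shifts of *Fgfr3* were -2.11 and -1.74, those of *Timp4* -1.45 and -1.43, and those of *Mmp9* -0.32 and -1.82.

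Whether the distance from sham differed between 1 and 6 weeks was tested in limma as an interaction of treatment and week in 27 mice, with 7 P+eMSC and 6 sham mice at 6 weeks. The interaction was called in 0 of 54 genes (0%) at an adjusted p below 0.05 and in 0 at an unadjusted p below 0.05, but in 1 (*Mmp9*) at an unadjusted p below 0.05 without P+eMSC mouse 10. Its smallest p was in *Mmp9*, where P+eMSC minus sham was -1.06 ± 1.12 (SE) at 1 week and 1.59 ± 1.16 (SE) at 6 weeks, a difference of -2.66 ± 1.61 between the weeks (SE, limma adjusted p = 0.999). The genes next in order of p were *Ctgf*, at -1.20 ± 1.11 (SE), and *Cd44*, at -1.44 ± 1.40 (SE), with the same limma adjusted p = 0.999.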

How the data were processed

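Total RNA from the skin of 41 mice was reverse transcribed and preamplified, and TaqMan assays were run on a Fluidigm dynamic array. The authors deposited Ct values per gene and mouse as a score of PCR cycles, not normalized (999 or an empty cell marks an undetected gene), and a second table with the fold change as a linear ratio over sham. Each gene has 1 value per mouse and technical repeats are not given, so precision rests on the number of mice and no read depth exists.

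The Ct of each gene was subtracted from the 18S Ct of the same mouse. Undetected values were left out, and a gene needed 4 or more values per group to be tested. P+eMSC and sham at 1 week were compared by the Mann-Whitney U test named in the methods, two-sided and exact, with Hodges-Lehmann shifts, their exact intervals at a confidence of at least 95%, and Benjamini-Hochberg adjustment over 54 genes. The difference between weeks was tested as an interaction in limma. The tests were checked on simulated data. Genes were named by rule, namely the 12 with the smallest exact p and the highest and lowest shift of each list. The values of 1 panel gene are not reported here. The mice, lists and tests were chosen with earlier results of these data known.

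The deposited fold changes were used as an alternative only. They were the reciprocals of the calculated ones in *Ccl2*, *Ccl11*, *Ccl12* and *Il6*, differed in *Il10* and used another calibrator in *Tnfa*. In *Mmp19* they lay within 0.01 log2 units in 7 of 14 mice (largest difference 0.091) and in *Timp3* in 13 of 14, with 1 value off by 0.81. The other alternatives were the panel median as reference, undetected values ranked lowest, filters on late and undetected Ct, limma, a permutation test of the means, permutation within the animal number series, the unadjusted threshold of the methods and leaving out each mouse. Leaving out mice 78 and 400 together was chosen after the data were seen. Gene symbols matched RefSeq for all 54 genes, 50 directly and 4 as older names. The software was limma 3.58.1 in R 4.3.3, and scipy 1.17.1, pandas 2.3.3, matplotlib 3.10.9 and numpy 2.4.6 under Python 3.11.15.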

Additional observations from a re-analysis of the deposited data

Results flagged for a closer look

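In 10 of the 112 sets of values tested (a gene or measure in 1 group), a single mouse stood apart from the others by Dixon's criterion, which flags about 1 in 20 sets by chance, and the sets share their mice. Sham mouse 2269 was the high value in 7 of them, at 6.21 in *Il1b*, 5.56 in *Ccl4*, 5.27 in *Ccl7*, 5.19 in *Timp1*, 5.00 in *Ccl2*, 4.71 in *Ccl12* and 4.67 in *Ccr2*, where the next sham mouse lay at 0.47, 0.030, 0.19, 1.08, 0.50, 0.10 and 0.49. Sham mouse 400 stood apart in *Vegfa*, at 2.97, with the other sham mice at 0.27 or lower. P+eMSC mouse 10 was apart in *Ccl4*, at 6.72 against 1.11 in the next mouse, and P+eMSC mouse 78 in *Tgfb2*, at -2.52 against -0.51.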

How the results depend on the processing

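No gene was called under any alternative at an adjusted p below 0.05, and the smallest adjusted p over the alternatives was 0.875. The methods' unadjusted threshold gave 0 genes, and permutation within the animal number series, whose meaning the labels do not give, gave 1 gene at an unadjusted p below 0.05 (*Pdgfa*, exact p = 0.0317, adjusted p = 1), with 16 shifts above 0 and 38 below. Without mice 78 and 400, 40 shifts were above 0 and 14 below, and in the means that limma and the permutation test compare, 18 were above and 36 below. For the named genes, 527 of 570 values kept the direction of the shift and 43 turned it, in genes whose shift was not called. The causes were not tested, apart from *Ccl12*, whose deposited fold changes are reciprocals and gave -1.12. With the panel median as reference the shift turned in *Col1a1* (0.056), *Il10* (-0.53) and *Arg1* (0.074), and with undetected values ranked lowest in *Il10* (-0.13). By limma on 14 and 41 mice and by the permutation of the means it turned in *Tgfb1* (-0.024) and *Timp1* (-0.22), and within the number series in *Tgfb1* (-0.15), *Fgf2* (-0.43) and *Ccl3* (1.47). Without mice 78 and 400 it turned in *Col1a1* (0.31), *Ccl3* (1.47), *Arg1* (0.61) and the panel mean (0.46). The difference in 18S Ct was -0.054 cycles by its mean. Leaving out 1 mouse at a time, the shift ran from -0.29 to 0.13 in *Col1a1*, -0.15 to 0.40 in *Tgfb1*, -0.20 to 0.63 in *Fgf2*, -0.40 to 0.79 in *Ccl3*, -0.18 to 1.19 in *Il10*, -1.69 to 0.43 in *Arg1*, -0.62 to 0.13 in the panel mean and -0.024 to 0.053 in 18S. Of the list medians, 5 of 11 turned sign with 1 mouse left out, running from -1.15 to 0.22 in the matrix metalloproteinases, -0.44 to 0.17 in the TGF-beta genes, -0.77 to 0.088 in the tissue inhibitors, -0.39 to 0.43 in the macrophage genes and -0.16 to 0.60 in the CXC chemokines. The other 6 kept their sign but ran from 0.10 to 0.86 in the collagens, 0.12 to 1.22 in the cytokines, 0.068 to 1.11 in the CC chemokines, 0.64 to 1.63 in the chemokine receptors, -0.84 to -0.081 in the adhesion genes and -0.93 to -0.40 in the growth factors. Single genes moved likewise, as in *Col3a1* (0.24 to 1.12), *Timp1* (0.16 to 0.80), *Il1b* (0.56 to 1.23), *Ccl4* (0.49 to 1.78), *Ccr7* (1.16 to 2.41) and *Cxcl2* (1.29 to 2.94). With undetected values ranked lowest, the shift was 0.50 in *Il1b*, 1.03 in *Ccr7* and 1.21 in *Cxcl2*, below these ranges. The interaction had 0 genes at an unadjusted p below 0.05, and 1 without mouse 10. *Gapdh*, planned as a second reference, was not run because the Ct table used here does not list it. No paired analysis was possible because the groups share no animal numbers.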
